A study of Homo sapiens with 10 samples.

Results

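The genes described here are 10 core members of the Notch pathway: the receptors NOTCH1, NOTCH2 and NOTCH3, the ligands JAG1 and JAG2, the nuclear factors RBPJ and MAML2, and the targets HES1, HEY1 and NRARP. They were picked by gene symbol from the 52402 symbols of the count data, and each symbol was listed once. The cells were BEAS2B, a line derived from normal human bronchial epithelium. By lipofection they received a scrambled control (miRcontrol), the miR-3124-5p mimic (miR3124_mimic), the miR-200b-3p mimic (miR200b_mimic), the miR-92b inhibitor (miR92b_inhibitor) or the 3 reagents together (the 3-miRNA mixed group), and mRNA-sequencing followed. The reagents were used at 50 nM and RNA was taken after 48 h. The methods do not state the amount of each reagent in the mixed group, and the labels do not say whether the 2 libraries of a group were separate transfections. If they were not, the p-values below cover technical spread only. All 5 groups were 1 cell line in culture. The labels call miRcontrol WT and name the other groups by overexpression or knockdown of the miRNAs, which here stand for transfected mimics and an inhibitor.

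Notch receptors are read at contacts between cells. A JAG or DLL ligand on one cell pulls on a receptor of its neighbor, an ADAM protease and then gamma-secretase cut the receptor, and the freed intracellular domain enters the nucleus. There it joins the DNA-binding protein RBPJ and a mastermind-like coactivator such as MAML2, and HES and HEY repressors and the feedback inhibitor NRARP are switched on. In the airway the pathway is known for balancing secretory against ciliated cells.

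A miRNA acts through a short seed, bases 2 to 8 of its mature sequence, which pairs with complementary words in the 3′UTR of an mRNA. The mimics stand for their miRNAs, while the inhibitor is directed against miR-92b. The mature sequences below are from RefSeq (GRCh38.p14, 5′ to 3′, seed in capitals) and show that no pair of these miRNAs shares a seed. The labels name no arm for miR-92b, so both arms are given.
miR-3124-5p: uUCGCGGGcgaaggcaaaguc
miR-200b-3p: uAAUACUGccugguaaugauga
miR-92b-3p: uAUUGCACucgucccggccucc
miR-92b-5p: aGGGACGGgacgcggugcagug

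The 10 libraries held between 13587666 and 18503890 counts. Libraries of a group differed by more than counting error, with a chi-square per degree of freedom of 1.75 to 2.63. The transfected miRNAs themselves are not read by mRNA-sequencing. ZEB1 and ZEB2, well-known targets of the miR-200 family, fell by 1.29 and 2.27 on the log2 scale in miR200b_mimic and by 1.12 and 1.66 in the mixed group. Of 7 epithelial markers, 4 (KRT7, KRT8, KRT17 and KRT18) had at least 1 CPM (counts per 1000000 of the library, scaled by edgeR's RLE factors) in every library, while CDH1 and EPCAM had 0.146 ± 0.0370 and 0.289 ± 0.239 CPM in miRcontrol (SD, n = 2 libraries here and throughout) and 9.97 ± 1.33 and 10.2 ± 0.125 in miR200b_mimic. The summed epithelial markers reached 2219 to 2264 CPM in miRcontrol, 4188 to 4267 in miR200b_mimic and 4088 to 4115 in the mixed group. They reached 2784 to 2793 in miR3124_mimic and 2097 to 2187 in miR92b_inhibitor. The 3 mesenchymal markers VIM, FN1 and CDH2 summed to 7314 to 7334 CPM in miRcontrol, 4383 to 4507 in miR3124_mimic, 4580 to 4635 in miR200b_mimic, 6823 to 6970 in miR92b_inhibitor and 4947 to 4968 in the mixed group. In miR3124_mimic the lower sum was that of VIM (813 ± 20.1 CPM against 3800 ± 132), and FN1 and CDH2 did not pass the test there (adjusted p = 0.216 for both). In miR200b_mimic FN1 had 1407 ± 52.8 CPM against 3264 ± 117. Markers of differentiated airway, basal and neuroendocrine cells stayed under 1 CPM in every library, as did PTPRC and CD3E of blood cells and PECAM1 and VWF of endothelium. The third blood marker, CD68, had 26.7 ± 0.501 CPM in miRcontrol, 18.5 ± 1.78 in miR200b_mimic (adjusted p = 4.50e-06) and 39.7 ± 1.32 in miR92b_inhibitor (adjusted p = 5.08e-08). The third endothelial marker, CDH5, had 3.26 ± 1.09 CPM in miR3124_mimic and 0.0585 ± 0.00173 in miRcontrol. The part of these shifts in the Notch results was not tested, and in bulk RNA fewer cells of a kind and less RNA per cell cannot be told apart.

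Compared per length, as CPM per kilobase of all exons of the gene in GENCODE v29, NOTCH2 was the most abundant member in miRcontrol at 37.8 ± 0.796. RBPJ followed at 16.1 ± 0.182. NOTCH1 (5.60 ± 0.655), MAML2 (3.52 ± 0.0933), JAG1 (3.37 ± 0.238), HES1 (2.25 ± 0.114), JAG2 (1.64 ± 0.107) and NRARP (1.17 ± 0.0113) lay between 1 and 6 CPM per kilobase. NOTCH3 was at 0.156 ± 0.0134 and HEY1 at 0.0904 ± 0.00268. The receptor pool of these cells was thus mostly NOTCH2 mRNA, and of the ligands JAG1 had the higher level. With the longest transcript as length, 8 of the 10 members kept their rank. About NOTCH2 a limit applies: the partial copy NOTCH2NL, with 122 to 227 counts per library against 7431 to 13222 for NOTCH2, can share reads with it.

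**Figure D1:**
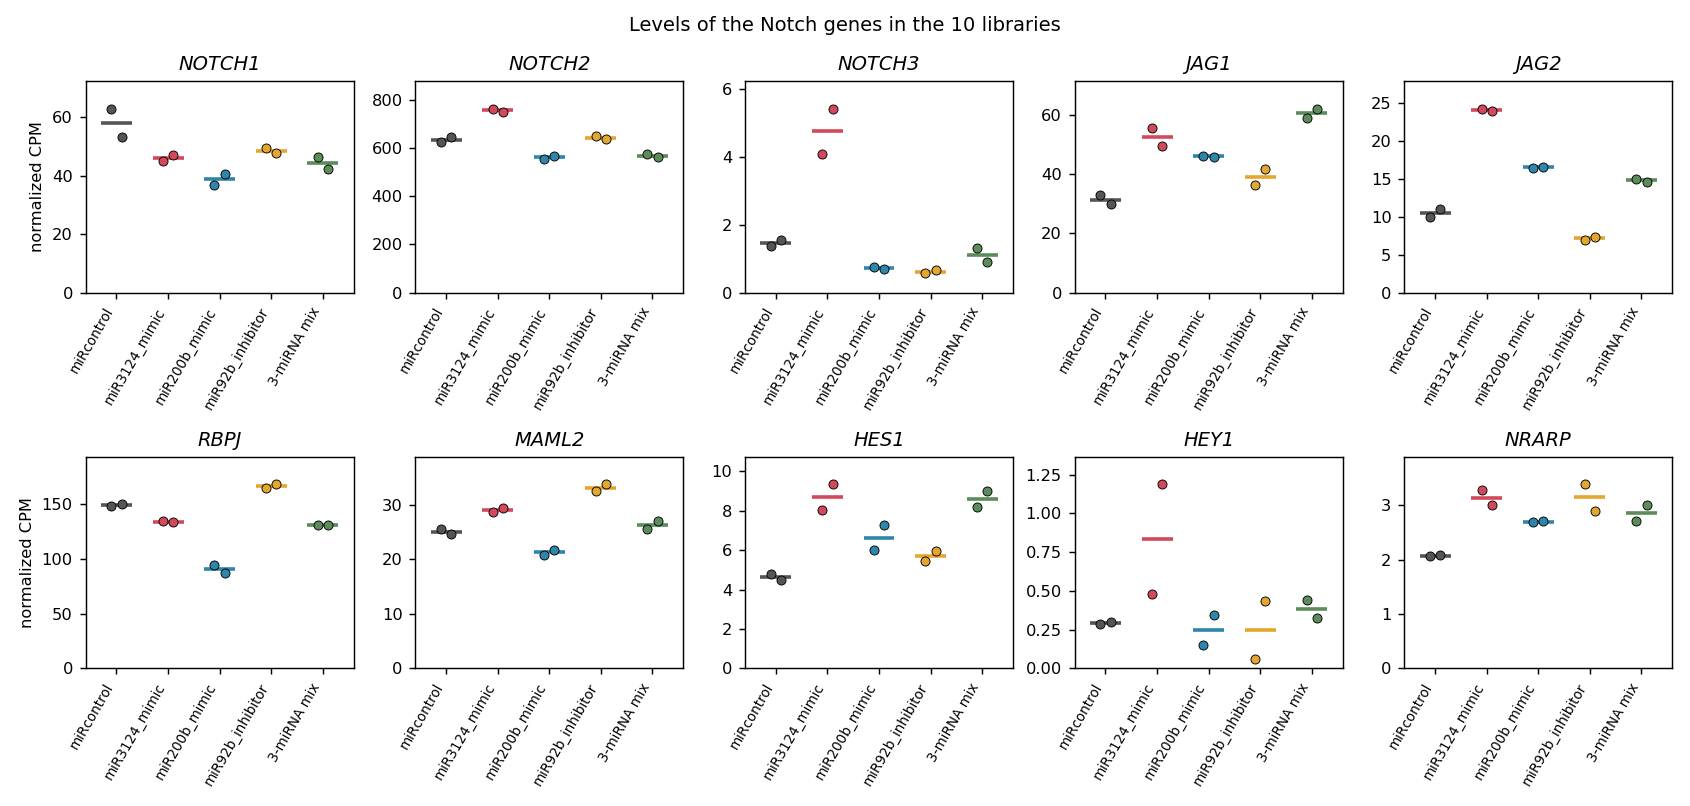
Normalized CPM (linear axis from 0, a separate scale for each gene) of the 10 Notch genes in miRcontrol, miR3124_mimic, miR200b_mimic, miR92b_inhibitor and the 3-miRNA mixed group. Points are the 2 libraries of a group and the horizontal line is their mean. JAG1 is lowest in miRcontrol and highest in the mixed group, RBPJ is lowest in miR200b_mimic, and NOTCH3 stands out in miR3124_mimic.

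Of the 10 members, 9 passed edgeR's filter on low counts and HEY1 did not, so no test was made for it. In one test for any difference among the 5 groups, 8 of these 9 passed at an adjusted p under 0.05, as did 77.0% of all genes, and NRARP did not (adjusted p = 0.156). Every adjusted p here is from the quasi-likelihood F-test of edgeR, adjusted by Benjamini-Hochberg over all 14884 genes tested. In miR3124_mimic all 9 differed from miRcontrol, 7 higher and 2 lower. The same test called 51.0% of all genes in that comparison (25.7% higher and 25.3% lower), so a call alone says little. In miR200b_mimic 8 differed, 3 higher and 5 lower, where 40.6% of all genes were called (21.4% higher and 19.1% lower). In miR92b_inhibitor 6 differed, 3 in each direction, against 35.7% of all genes (17.5% and 18.2%). The mixed group also had 6, 3 in each direction, against 42.7% (21.5% and 21.1%). The median log2 fold change of the 9 members was 0.59, -0.18, 0.16 and 0.07 in these comparisons, and that of all genes was within 0.01 of 0 in each. A change of 2-fold or more together with an unadjusted p below 0.05 was met by NOTCH3 and JAG2 in miR3124_mimic (2 members, 8.81% of all genes), NOTCH3 in miR200b_mimic (1 member, 5.7%) and NOTCH3 in miR92b_inhibitor (1 member, 2.63%). The mixed group had 0 by that criterion (5.42% of all genes), against the 6 with an adjusted p under 0.05. All 4 comparisons share the miRcontrol libraries and are not independent of each other.

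**Figure D2:**
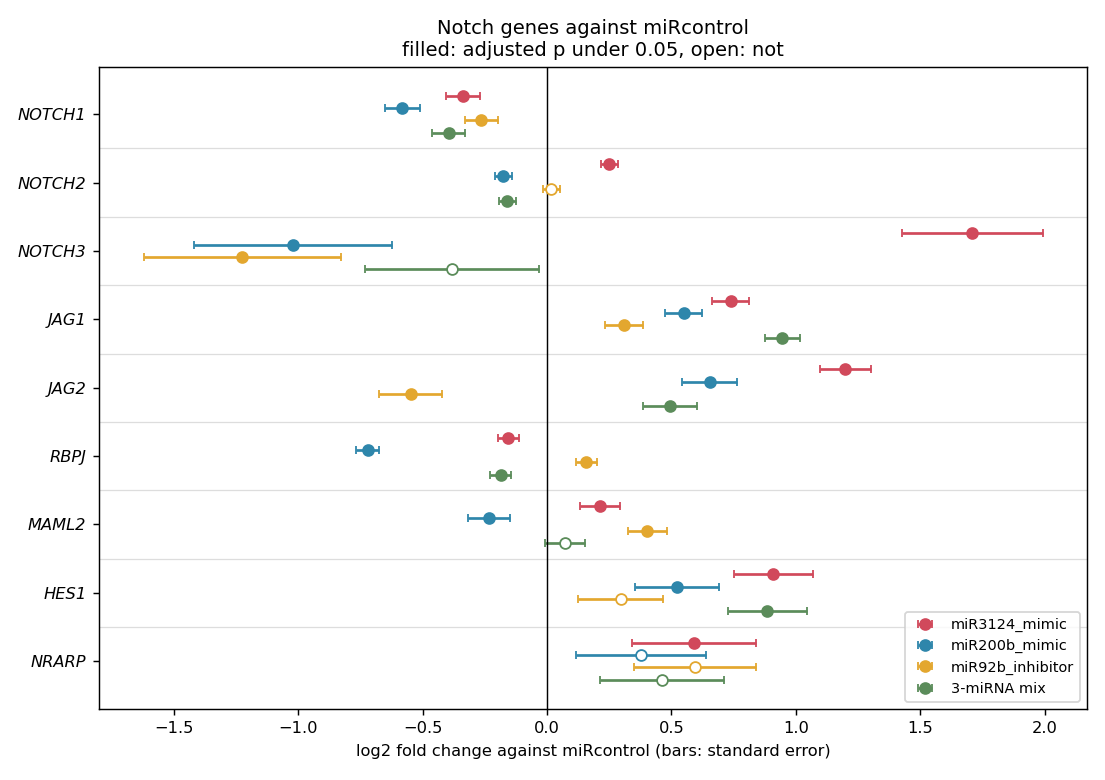
Log2 fold change against miRcontrol (x axis, standard error as bars) of the 9 tested Notch genes in the 4 transfected groups. Filled points have an adjusted p under 0.05 and open points do not. NOTCH1 lies to the left of 0 and JAG1, HES1 and NRARP to the right in all 4 groups, while NOTCH3 and JAG2 are found on both sides.

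Among the receptors, NOTCH1, on chromosome 9 of GRCh38 (136494433 to 136545786, minus strand), was lower in every transfected group. Its libraries had 62.9 and 53.3 CPM in miRcontrol. The values were 45.0 and 47.0 for miR3124_mimic, 36.9 and 40.5 for miR200b_mimic, 49.4 and 47.6 for miR92b_inhibitor, and 46.2 and 42.2 for the mixed group. No library of a transfected group reached the lower control library. NOTCH1 fell by 0.58 on the log2 scale in miR200b_mimic (standard error 0.0711, adjusted p = 2.81e-09), by 0.34 in miR3124_mimic (adjusted p = 4.98e-05), by 0.26 in miR92b_inhibitor (adjusted p = 0.00156) and by 0.40 in the mixed group (adjusted p = 3.85e-06). The control libraries lay further apart than those of any other group, and the size of the fall leaned on the higher of them. Without the first miRcontrol library the log2 fold change was -0.14 in miR92b_inhibitor (adjusted p = 0.211) and -0.21 in miR3124_mimic (adjusted p = 0.0291). In the order of levels, miR92b_inhibitor did not differ from miR3124_mimic (adjusted p = 0.385), nor miR3124_mimic from the mixed group (adjusted p = 0.521). The level in miR200b_mimic lay below that of the mixed group (log2 difference 0.19, adjusted p = 0.0399). That last call was lost in 4 settings, among them those without the first miR200b_mimic library (0.12, adjusted p = 0.305) and without the first mixed library (0.12, adjusted p = 0.338).

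The 3′UTRs of all 10 members were searched for words complementary to the seeds, and that of NOTCH1 is shown first. In the longest coding transcript of GENCODE v29 it is 1638 bases long and holds CAGTATT, the complement of the miR-200b-3p seed, once, followed by an A. The site is shown with its word in capitals, at chr9:136495321-136495350 on the minus strand of GRCh38.
NOTCH1 site: tctttgtttcaggttCAGTATTatgtagtt
Of the 10 members, JAG2 alone also has this word, and its site (chr14:105141904-105141933, minus strand) is printed to set beside that of NOTCH1.
JAG2 site: atcctgggacggcggCAGTATTgaagctcg
The word occurs in 19.5% of the 12232 tested genes with a 3′UTR, so 2 of 10 members is close to that background. In miR200b_mimic, NOTCH1 was lower and JAG2 higher than in miRcontrol, so the members with the word did not share a direction. The complement of the miR-92b-3p seed, GTGCAAT, was found in MAML2 only, at chr11:95978262-95978291 on the minus strand, and in 13.1% of all genes.
MAML2 site: caaaaatatagagctGTGCAATttgatttt
No member held CCCGCGA, the complement of the miR-3124-5p seed (0.621% of all genes), or CCGTCCC, that of miR-92b-5p (4.19%). When the word of seed bases 2 to 7 followed by A was searched instead, which was chosen after the data were seen, AGTATTA for miR-200b-3p was found in NOTCH1 only, at the same site (14.7% of all genes). TGCAATA for miR-92b-3p was found 2 times in NOTCH1 and 2 times in RBPJ (13.1% of all genes), and CGTCCCA for miR-92b-5p once in NOTCH1 (3.09%). A word is a match of letters and is not evidence of a working site.

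NOTCH2, the most abundant receptor, moved little. It had 626 and 644 CPM in miRcontrol. The values were 763 and 748 for miR3124_mimic, 556 and 568 for miR200b_mimic, 648 and 636 for miR92b_inhibitor, and 575 and 562 for the mixed group. The levels fell into 3 steps: miR3124_mimic on top, then miR92b_inhibitor with miRcontrol, then the mixed group with miR200b_mimic. Neighbors within a step did not differ (adjusted p of 0.756 and 0.757). NOTCH2 rose by 0.25 on the log2 scale in miR3124_mimic (adjusted p = 2.18e-08) and fell by 0.18 in miR200b_mimic (adjusted p = 4.02e-05) and by 0.16 in the mixed group (adjusted p = 0.000139). The largest of these is a change of 19.0% in level.

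NOTCH3 was low but had the widest range of the members. Its raw counts were 24 and 26 in miRcontrol. The values were 60 and 96 for miR3124_mimic, 10 and 12 for miR200b_mimic, 10 and 12 for miR92b_inhibitor, and 24 and 17 for the mixed group. Both miR3124_mimic libraries were above all others, and both libraries of miR200b_mimic and miR92b_inhibitor were below miRcontrol. The log2 fold change was 1.71 in miR3124_mimic (standard error 0.283, adjusted p = 1.39e-06), from 1.46 ± 0.126 to 4.76 ± 0.943 CPM. In miR200b_mimic it was -1.02 (adjusted p = 0.0355) and in miR92b_inhibitor -1.22 (adjusted p = 0.0123), but these falls rest on about 10 counts per library. The call in miR200b_mimic was lost without either library of miRcontrol or of miR200b_mimic (adjusted p from 0.0679 to 0.164) and under DESeq2 (0.104). That in miR92b_inhibitor was lost without the second miRcontrol library (0.0770) or either miR92b_inhibitor library (0.0732 and 0.0514). In the mixed group the level was 1.12 ± 0.292 CPM with a log2 fold change of -0.38 (adjusted p = 0.405), and it lay 2.09 below that of miR3124_mimic (adjusted p = 4.85e-08). The 3 genes whose log2 CPM followed that of NOTCH3 most closely over the 10 libraries were SLC35E2 (Pearson r = 0.992), NISCH (0.989) and CAPNS1 (0.989), chosen out of all genes tested and given as a description. They share the libraries with NOTCH3, and their range was far narrower, as with NISCH at 74.0 CPM in miR92b_inhibitor and 106 in miR3124_mimic.

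Both ligands were higher in miR3124_mimic, miR200b_mimic and the mixed group. JAG1, on chromosome 20 (10637684 to 10673999, minus strand), had 32.9 and 29.8 CPM in miRcontrol. The values were 55.6 and 49.4 for miR3124_mimic, 46.1 and 45.7 for miR200b_mimic, 36.1 and 41.6 for miR92b_inhibitor, and 58.8 and 62.0 for the mixed group. Every transfected library was above both control libraries, and the mixed group was above all others. JAG1 rose by 0.94 on the log2 scale in the mixed group (standard error 0.0705, adjusted p = 1.19e-15), by 0.74 in miR3124_mimic (adjusted p = 5.01e-12), by 0.55 in miR200b_mimic (adjusted p = 3.92e-08) and by 0.31 in miR92b_inhibitor (adjusted p = 0.000947). It was the only member called higher in all 4 comparisons. HES1 and NRARP also had positive log2 fold changes in all 4, but not all of these passed. Each step in this order also passed the test between neighbors, but none of the 4 steps held in every setting. Without the second miR3124_mimic library, the mixed group was 0.12 above miR3124_mimic (adjusted p = 0.237), and without the second mixed library 0.17 (0.0944). The step from miR3124_mimic to miR200b_mimic was 0.10 without the first miR3124_mimic library (0.327). The call of this step was also lost without either miR200b_mimic library (0.0646 and 0.108) and under DESeq2 (0.0842), as that of the mixed group over miR3124_mimic was (0.0642). The step from miR200b_mimic to miR92b_inhibitor was 0.14 without the first miR92b_inhibitor library (0.175), and the rise in miR92b_inhibitor over miRcontrol was 0.21 without the second (0.0943). JAG1 shares 79 exon bases with the antisense gene AL050403.2, and the strand setting of the counting is not given in the sources used here.

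JAG2, on chromosome 14 (105140981 to 105168824, minus strand), separated the groups more sharply. Its libraries had 10.0 and 11.0 CPM in miRcontrol. The values were 24.2 and 24.0 for miR3124_mimic, 16.5 and 16.6 for miR200b_mimic, 7.002 and 7.34 for miR92b_inhibitor, and 14.99 and 14.6 for the mixed group. The groups did not overlap. JAG2 rose by 1.20 in miR3124_mimic (standard error 0.104, adjusted p = 7.42e-14), a 2.30-fold change, by 0.65 in miR200b_mimic (adjusted p = 3.27e-06) and by 0.49 in the mixed group (adjusted p = 0.000219). In miR92b_inhibitor it fell by 0.55 (adjusted p = 0.000481), the direction opposite to JAG1 in that group. The order was miR3124_mimic, miR200b_mimic, mixed group, miRcontrol, miR92b_inhibitor, and of the neighbors only miR200b_mimic and the mixed group did not differ (log2 difference 0.16, adjusted p = 0.234). JAG2 shares 469 exon bases with AL512356.1 on the same strand, whose reads could not be separated from its own.

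RBPJ, the DNA-binding factor of the pathway, lies on chromosome 4 (26163455 to 26435131, plus strand). It had 148 and 150 CPM in miRcontrol. The values were 135 and 133 for miR3124_mimic, 94.1 and 87.3 for miR200b_mimic, 165 and 168 for miR92b_inhibitor, and 131 and 131 for the mixed group. The miR200b_mimic libraries were the lowest and the miR92b_inhibitor libraries the highest, both apart from all others. RBPJ fell by 0.72 in miR200b_mimic (standard error 0.0461, adjusted p = 6.02e-18), to 0.607 of the control level, and this had the smallest adjusted p of any member in any comparison with miRcontrol. The 3′UTR of its longest coding transcript, 4121 bases, does not hold CAGTATT or AGTATTA. RBPJ fell by 0.15 in miR3124_mimic (adjusted p = 0.00254) and by 0.19 in the mixed group (adjusted p = 0.000367), and these 2 groups did not differ from each other (adjusted p = 0.587). In miR92b_inhibitor it rose by 0.16 (adjusted p = 0.00247). The mixed group, which also received the miR-200b-3p mimic, was 0.53 above miR200b_mimic (adjusted p = 2.72e-13).

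MAML2, a mastermind-like coactivator that bridges the receptor domain and RBPJ, had its lowest and highest levels in the same groups as RBPJ. Its libraries had 25.5 and 24.6 CPM in miRcontrol. The values were 28.7 and 29.4 for miR3124_mimic, 20.9 and 21.7 for miR200b_mimic, 32.6 and 33.7 for miR92b_inhibitor, and 25.6 and 27.1 for the mixed group. MAML2 rose by 0.40 in miR92b_inhibitor (standard error 0.0779, adjusted p = 4.57e-05). In miR3124_mimic the log2 fold change was 0.21 (adjusted p = 0.0236) and in miR200b_mimic -0.23 (adjusted p = 0.0251). Both calls were lost without any 1 of the 4 libraries compared (adjusted p from 0.0506 to 0.144), under DESeq2 (0.106 and 0.0991) and without the filter on low counts (0.0658 and 0.0663). The log2 difference between miR92b_inhibitor and miR3124_mimic, 0.19 (adjusted p = 0.0316), was lost likewise without any 1 of the 4 libraries of those groups (from 0.0514 to 0.144). In the mixed group the log2 fold change was 0.07 (adjusted p = 0.511). MAML2 shares 549 exon bases with AP000779.1 on the opposite strand.

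HES1, a repressor of the basic helix-loop-helix family and the classical Notch target, had 4.81 and 4.48 CPM in miRcontrol. The values were 8.06 and 9.34 for miR3124_mimic, 5.98 and 7.25 for miR200b_mimic, 5.43 and 5.97 for miR92b_inhibitor, and 8.18 and 8.99 for the mixed group. Every transfected library was above both control libraries. HES1 rose by 0.91 in miR3124_mimic (standard error 0.161, adjusted p = 4.56e-06) and by 0.89 in the mixed group (standard error 0.158, adjusted p = 8.14e-06), and these groups were 0.02 apart (standard error 0.143, adjusted p = 0.906). In miR200b_mimic it rose by 0.52 (adjusted p = 0.0112), a call lost without the second miRcontrol library (adjusted p = 0.0759), without the second miR200b_mimic library (0.37, adjusted p = 0.209) and under DESeq2 (0.0666). In miR92b_inhibitor the value was 0.30 (adjusted p = 0.183). No pair of neighbors in the order of levels passed the test. The mixed group over miR200b_mimic was close to the threshold (0.36, adjusted p = 0.0522) and passed in some alternative settings.

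The promoter of HES1 is shown because RBPJ binds it in many cell types. The core word of RBPJ sites, TGGGAA, was searched on both strands from 250 bases before to 50 bases after each RefSeq start, which gave promoters for 9 of the 10 members. The HES1 window (GRCh38.p14, plus strand) holds 2 words on the gene's strand, which begin 84 and 70 bases before the start, at chr3:194136052-194136081 and chr3:194136066-194136095.
HES1 first word: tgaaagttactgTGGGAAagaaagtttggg
HES1 second word: ggaaagaaagttTGGGAAgtttcacacgag
Of 35116 promoters, 24.0% hold the word and 3.80% hold 2 or more. Of the other members, only 1 of the 5 RBPJ promoters had it. RBPJ mRNA was called lower in 3 of the 4 transfected groups and HES1 mRNA was called higher in the same 3. Binding was not measured.

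NRARP, a small ankyrin-repeat protein that dampens Notch signals, had between 2.06 and 3.38 CPM. Both miRcontrol libraries, 2.06 and 2.09, were below all others, whose lowest value was 2.69. The log2 fold change was 0.59 in miR3124_mimic (standard error 0.251, adjusted p = 0.0452), 0.38 in miR200b_mimic (standard error 0.260, adjusted p = 0.261), 0.60 in miR92b_inhibitor (standard error 0.247, adjusted p = 0.0549) and 0.46 in the mixed group (standard error 0.249, adjusted p = 0.135). With 35 to 58 counts per library, changes of this size are at the limit of the depth. The call in miR3124_mimic was lost without any 1 of the 4 libraries compared (adjusted p from 0.0873 to 0.164). HEY1, a repressor related to HES1, had raw counts of 5 and 5 in miRcontrol. The values were 7 and 21 for miR3124_mimic, 2 and 6 for miR200b_mimic, 1 and 8 for miR92b_inhibitor, and 8 and 6 for the mixed group. The second miR3124_mimic library stood apart and its partner did not.

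The mixed group asks whether the 3 reagents together differed from each alone. Against miR3124_mimic, 4 of the 9 tested members differed (49.1% of all genes did, 25.3% higher and 23.8% lower). JAG1 was higher and NOTCH2, NOTCH3 and JAG2 were lower. Against miR200b_mimic 4 were higher and 0 lower, where 38.6% of all genes differed (18.2% higher and 20.4% lower), namely NOTCH1, JAG1, RBPJ and MAML2. Against miR92b_inhibitor 6 differed (39.6% of all genes, 19.7% higher and 19.9% lower), with JAG1, JAG2 and HES1 higher and NOTCH2, RBPJ and MAML2 lower. JAG1 was thus the member that was higher in the mixed group than in each single group, at log2 differences of 0.21, 0.40 and 0.63 (adjusted p = 0.00759, 4.99e-06 and 8.52e-11). JAG2, in contrast, was 0.71 lower in the mixed group than in miR3124_mimic (adjusted p = 3.03e-08) and 1.04 higher than in miR92b_inhibitor (adjusted p = 3.47e-10).

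**Figure D3:**
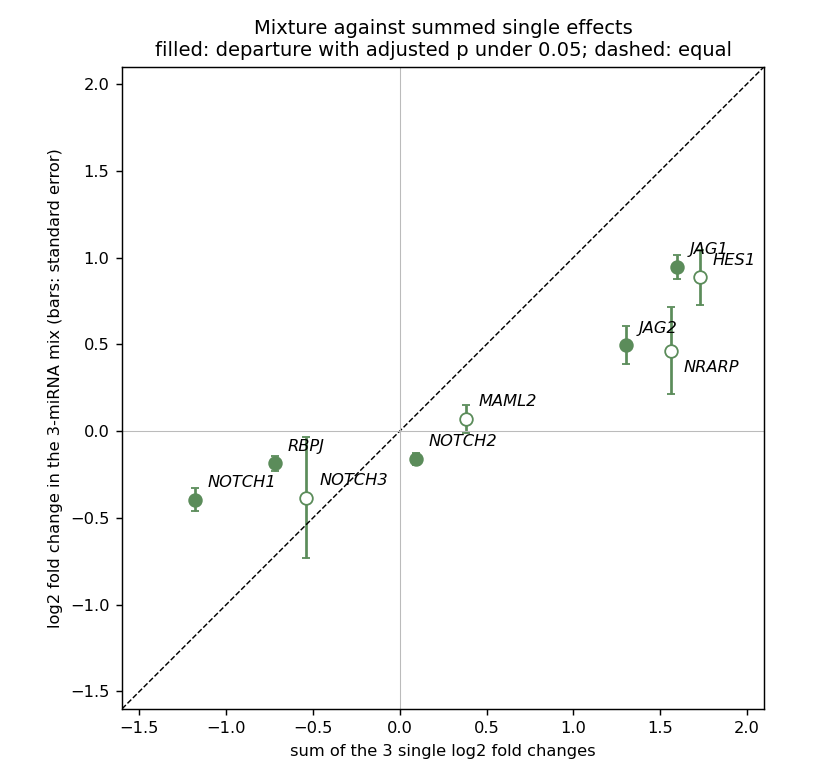
Log2 fold change of the 9 tested Notch genes in the 3-miRNA mixed group (y axis, standard error as bars) against the sum of their 3 single log2 fold changes (x axis). Filled points depart from the sum at an adjusted p under 0.05, and the dashed line marks equal values. JAG1 and JAG2 lie below the line on the right, and NOTCH1 and RBPJ above it on the left.

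The sum of the 3 single log2 fold changes was then set against the mixed group in one contrast of the same fit. The test called 5 of the 9 members, where 21.7% of all genes were called (11.7% above the sum and 10.1% below). JAG1 had a sum of 1.60 and a value of 0.94 in the mixed group, a departure of -0.65 (standard error 0.147, adjusted p = 0.000709). JAG2 had a sum of 1.31 and a value of 0.49 (departure -0.81, adjusted p = 0.00625). For NOTCH1 the sum was -1.18 and the value -0.40 (departure 0.79, adjusted p = 1.84e-05), and for RBPJ they were -0.72 and -0.19 (departure 0.53, adjusted p = 6.37e-06). In these 4 genes the mixed group moved in the direction of the sum, but less far. NOTCH2 had a sum of 0.09 and a value of -0.16 (departure -0.25, adjusted p = 0.00519). The departures of HES1 (-0.84, standard error 0.330, adjusted p = 0.0612), NRARP (-1.10, standard error 0.501, adjusted p = 0.117), MAML2 (-0.31, standard error 0.162, adjusted p = 0.182) and NOTCH3 (0.15, standard error 0.694, adjusted p = 0.914) did not pass, and their errors leave room for departures as large as those that did. Without the first miRcontrol library the calls of NOTCH2 (-0.21, adjusted p = 0.0987) and JAG2 (-0.68, adjusted p = 0.0986) were lost, and 3 members were called. Without the first library of miR3124_mimic or of miR200b_mimic, HES1 was called too (-0.94 and -0.96). The amount of each reagent in the mixed group was not stated, so a smaller dose of each and an effect of the combination cannot be told apart.

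The rest of the pathway was followed with a list of 67 other Notch genes, of which 59 were tested. NOTCH4, DLK1 and HES5 had 0 counts in every library, and DLL1, DTX1, HEYL, HEY2 and MFNG had at most 9 in any. In miR3124_mimic 25 of the 59 were higher and 18 lower (72.9% called, against 51.0% of all genes), in miR200b_mimic 15 and 13 (47.5%, against 40.6%), in miR92b_inhibitor 13 and 10 (39.0%, against 35.7%) and in the mixed group 18 and 15 (55.9%, against 42.7%). The medians of the list were 0.12, 0.05, -0.01 and 0.01 on the log2 scale, against 0.004, -0.005, -0.006 and 0.003 for all genes.

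**Figure D4:**
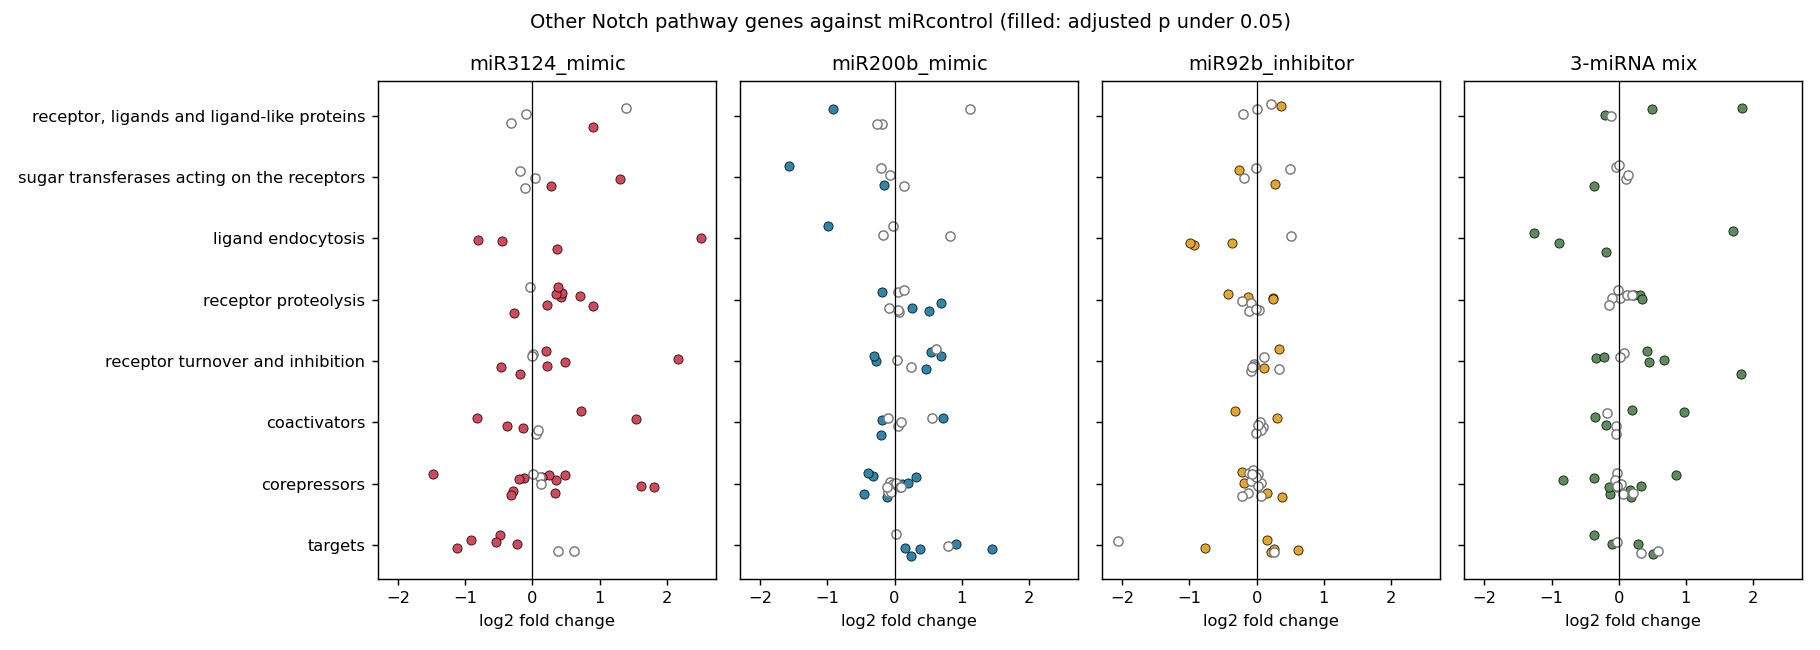
Log2 fold change against miRcontrol (x axis) of the 59 tested other Notch pathway genes, by role (rows, points spread vertically for legibility) in the 4 transfected groups (panels). Filled points have an adjusted p under 0.05. The receptor proteolysis genes lie mostly right of 0 and the called targets left of 0 in miR3124_mimic, and the called targets lie right of 0 in miR200b_mimic.

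Of the 9 genes of receptor proteolysis, 7 were higher and 1 lower in miR3124_mimic (25.7% and 25.3% of all genes), with a median log2 fold change of 0.38. In miR200b_mimic 3 were higher and 1 lower (21.4% and 19.1% of all genes). The numbers were 2 and 2 in miR92b_inhibitor (17.5% and 18.2%) and 3 and 0 in the mixed group (21.5% and 21.1%). Those higher in miR3124_mimic included APH1B, a gamma-secretase subunit (19.7 ± 2.40 CPM in miRcontrol against 37.0 ± 0.834 in miR3124_mimic). APH1B rose by 0.70 in miR200b_mimic as well, and by 0.31 in the mixed group (adjusted p = 0.00679). NCSTN, another gamma-secretase subunit, rose by 0.35 in miR3124_mimic (adjusted p = 1.18e-07) and fell by 0.43 in miR92b_inhibitor. Among the 4 ubiquitin ligases of ligand endocytosis, NEURL1B had 13.5 ± 1.14 CPM in miRcontrol. It fell in all 4 groups, by 0.81, 0.99, 0.99 and 1.26. MIB2 fell by 0.94 in miR92b_inhibitor, by 0.89 in the mixed group and by 0.46 in miR3124_mimic (adjusted p = 0.00096). MIB1 fell by 0.36 in miR92b_inhibitor and by 0.19 in the mixed group (adjusted p = 0.00077), and rose by 0.36 in miR3124_mimic (adjusted p = 2.64e-09). NEURL1, a low-level relative, rose by 2.51 in miR3124_mimic and by 1.70 in the mixed group, from 0.674 ± 0.144 CPM. Of the sugar transferases that tune the receptors, LFNG rose by 1.30 in miR3124_mimic and had a log2 fold change of -1.57 in miR200b_mimic (adjusted p = 0.0110), with 1.08 ± 0.0920 CPM in miRcontrol. The LFNG call in miR200b_mimic was lost without the first miRcontrol library (adjusted p = 0.0605) or the second miR200b_mimic library (0.140). EOGT fell by 0.37 in the mixed group and by 0.26 in miR92b_inhibitor (adjusted p = 0.000161).

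Among ligands and ligand-like genes, DNER had 133 ± 2.11 CPM in miRcontrol and 70.5 ± 0.896 in miR200b_mimic, a fall by 0.91. It rose by 0.36 in miR92b_inhibitor and fell by 0.21 in the mixed group (adjusted p = 9.85e-05). DLL4, with 1.07 ± 0.213 CPM in the mixed group, had a log2 fold change of 1.84 there (adjusted p = 0.00891), but 1.14 without the first miRcontrol library (adjusted p = 0.200), 3.14 without the second and an adjusted p of 0.0840 without the first mixed library. Of the genes of receptor turnover, DTX4 rose by 2.16 in miR3124_mimic and by 1.82 in the mixed group, from 1.32 ± 0.0803 CPM. FBXW7, a ubiquitin ligase that marks the freed receptor domain for degradation, rose in every transfected group. The rise was 0.69 in miR200b_mimic, 0.68 in the mixed group, 0.49 in miR3124_mimic (adjusted p = 1.39e-05) and 0.33 in miR92b_inhibitor. The last of these calls was lost without the second miRcontrol library (adjusted p = 0.0671) or the second miR92b_inhibitor library (0.0617). DTX3L rose by 0.54 in miR200b_mimic, by 0.45 in the mixed group (adjusted p = 6.85e-09) and by 0.21 in miR3124_mimic (adjusted p = 0.00311).

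Among the nuclear genes of the list, L3MBTL3, an RBPJ-binding corepressor, rose by 1.62 in miR3124_mimic, from 6.60 ± 2.33 to 20.3 ± 1.64 CPM. TLE2 rose by 1.81 in the same group, and its value of 0.85 in the mixed group (adjusted p = 0.0448) was lost without any 1 of the 4 libraries (adjusted p from 0.105 to 0.144) and under DESeq2 (0.145). In miR200b_mimic FHL1 fell by 0.45 and TLE4 by 0.40, while in miR3124_mimic they rose by 0.48 and 0.33 (adjusted p = 8.19e-11 and 3.93e-05). In the mixed group FHL1 fell by 0.14 (adjusted p = 0.0294). TLE1 rose by 0.37 in miR92b_inhibitor, by 0.33 in miR200b_mimic (adjusted p = 0.000108) and by 0.19 in the mixed group (adjusted p = 0.0202). Of the coactivators, MAML3, a relative of MAML2, rose by 1.55 in miR3124_mimic, from 1.83 ± 0.400 to 5.40 ± 0.279 CPM. Its values were 0.72 in miR200b_mimic (adjusted p = 0.0349) and 0.97 in the mixed group (adjusted p = 0.00215). The MAML3 call in miR200b_mimic was lost under DESeq2 (0.114), without either miR200b_mimic library (0.116 and 0.0878) and without the second miRcontrol library (0.51, adjusted p = 0.249), and that in the mixed group without the second miRcontrol library (0.76, adjusted p = 0.0548). KAT2A fell by 0.83 in miR3124_mimic and by 0.36 in the mixed group (adjusted p = 1.80e-05). SNW1 rose by 0.31 in miR92b_inhibitor and by 0.19 in the mixed group (adjusted p = 0.00089). In miR3124_mimic SNW1 fell by 0.14 (adjusted p = 0.0161).

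Of the 7 tested genes listed as further targets, 0 rose and 5 fell in miR3124_mimic, where 25.7% of all genes were higher and 25.3% lower. In miR200b_mimic 5 rose and 0 fell (21.4% and 19.1% of all genes). In miR92b_inhibitor 4 rose and 1 fell (17.5% and 18.2%), and in the mixed group 2 rose and 2 fell (21.5% and 21.1%). CCND1, a cyclin of the G1 phase, fell by 0.92 in miR3124_mimic, from 1050 ± 17.7 to 556 ± 22.3 CPM. CCND1 fell by 0.10 in the mixed group (adjusted p = 0.0129). It rose by 0.15 in miR200b_mimic (adjusted p = 0.000213) and by 0.21 in miR92b_inhibitor (adjusted p = 1.21e-06). SNAI2, a repressor of epithelial genes, fell by 1.12 in miR3124_mimic, from 23.2 ± 0.150 to 10.7 ± 0.678 CPM. SNAI2 rose by 0.91 in miR200b_mimic, to 43.7 ± 0.885 CPM, by 0.61 in miR92b_inhibitor and by 0.52 in the mixed group. HES2, with 1.08 ± 0.382 CPM in miR200b_mimic, had a value of 1.45 (adjusted p = 0.0295), and its call was lost without either miRcontrol library or the first miR200b_mimic library (adjusted p from 0.0648 to 0.254). HES4, a relative of HES1, fell by 0.77 in miR92b_inhibitor, from 21.3 ± 1.11 to 12.5 ± 0.0426 CPM. It fell by 0.49 in miR3124_mimic (adjusted p = 0.000167) and rose by 0.38 in miR200b_mimic (adjusted p = 0.00161). In the mixed group HES4 had a value of -0.37 (adjusted p = 0.00292), which was -0.17 without the second mixed library (adjusted p = 0.261), -0.60 without the first and -0.32 without the first miRcontrol library (adjusted p = 0.0519). CCND1 and SNAI2 are targets of many other pathways as well.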

How the data were processed

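The authors trimmed the paired-end reads of poly(A)-selected RNA with FASTX_Trimmer and BBMap and mapped them with TopHat. GRCh38 is the build in the submitters' processing notes. The counting tool and annotation are not given in the sources used here. The deposited values were raw read counts per gene symbol in 58173 rows, of which 5771 repeat a symbol, and counts of repeated symbols were summed. The methods speak of FPKM and a geometric normalization, neither of which had been applied to these values.

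Genes were filtered with filterByExpr, normalized by RLE (factors 0.985 to 1.016) and fitted with edgeR 4.0.16 in R 4.3.3 by the quasi-likelihood method, with all 10 libraries in one fit, no covariates and Benjamini-Hochberg adjustment over all 14884 genes. The standard error is the absolute log2 fold change divided by the root of F. Scripts were tested on simulated counts. NOTCH3 likeness used log2(CPM + 0.1).

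The members and lists were chosen with earlier results of these data known. All members were named. Of the other pathway genes, the 5 highest and 5 lowest called with a mean of at least 1 CPM and any called with a fold change of at least 2 were named in each comparison, except for 1 gene that is not reported here. The 3′UTR is that of the longest coding transcript in GENCODE v29. The alternatives were TMM, library totals, DESeq2 1.42.0, edgeR's exact test, only the groups compared, no filter, a minimum of 10 counts in all libraries, the replicate number as a block, and the fit without each library in turn.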

Additional observations from a re-analysis of the deposited data

How the results depend on the processing

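Of 287 alternative values of the counts of calls, 279 stayed within a factor of 1.5. Of 2530 alternative values of single genes, 2439 kept their side of the threshold, 81 lost the call and 10 gained it. The count of reversals was 0. Where neither value was called, a change of sign by less than the standard error was not counted as a reversal. DESeq2 called 5 members in miR200b_mimic in place of 8; the cause was not tested. HEY1 passed the filter when any of 9 single libraries was left out, and was called in miR3124_mimic in 3 of those fits, without the first miR3124_mimic library (adjusted p = 0.0181) or either miR92b_inhibitor library (0.0422 and 0.0442). The 10 below is from the latter. Leaving out single libraries, with a lone library assumed to vary like the other groups, the members called ranged from 7 to 10 in miR3124_mimic, 5 to 8 in miR200b_mimic, 4 to 6 in miR92b_inhibitor and 6 to 6 in the mixed group. By a fold of 2 with an unadjusted p, they ranged from 2 to 4, 0 to 1, 1 to 1 and 0 to 1. Departures from the sum ranged from 3 to 6. The mixed group differed in 3 to 5 members from miR3124_mimic, 3 to 5 from miR200b_mimic and 6 from miR92b_inhibitor. No scaling or other setting moved the median of all genes by more than 0.0371 on the log2 scale. The shares of all genes called in these other fits are not given here. A change in the number of members called therefore cannot be told from a general change in calls.

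Same-numbered libraries were not paired by their values, since the within-group differences of any 2 groups had correlations of -0.0625 to 0.0613 across 10419 genes. With the replicate block, 9, 8, 6 and 6 members were called in the 4 comparisons with miRcontrol, and HES1 was also called against miR200b_mimic in the mixed group (adjusted p = 0.0472). The same call was gained with TMM (0.0492), library totals (0.0376), at least 10 counts (0.0448) and the exact test (0.0440). Without the second miR200b_mimic library this HES1 difference was 0.52 on the log2 scale. NOTCH3, NRARP and HEY1, with under 100 counts in every library, and HES1, with 75 to 167, were limited by depth.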
